A study of Homo sapiens with 4 samples.

Results

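The RNAs described here are the H/ACA snoRNAs and scaRNAs of SY5Y cells, taken as the genes named SNORA or SCARNA of type snoRNA that held at least 20 sense-strand fragments summed over the 4 libraries. The rule selected 74 genes, 61 SNORA and 13 SCARNA, of the 447 genes with such names and of the 57820 genes counted. Of the others, 287 were listed at 0 in every library and 86 held a sum of 1 to 19. The sum that chose the members says nothing about the treatment by itself, and it is given below as a description of level only.

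SY5Y is an established human neuroblastoma cell line, labelled MYCN wild type. Total RNA was sequenced 12 h after DMSO, the solvent, in 2 libraries and 12 h after SGSS05-NS in 2 libraries, and all 4 share the same line and genotype. The labels name the compound SGSS05-NS. The study describes SGSS05-NS3, an inhibitor of SETD8 (gene symbol KMT5A), and also names SGSS05-NS as a compound of the same series, so which of them was used is not settled here. SETD8 is the enzyme that places a single methyl group on lysine 20 of histone H4 and on p53. The labels give a dose of 3 μM, as do figure legends of the study for SY5Y cells, while its methods name a lower one for this line, so the dose is uncertain. The question here was whether the members changed with the compound, and whether they moved with the genes whose introns carry them. Every result rests on 1 cell line and 1 time point.

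H/ACA RNAs fold into hairpins that pair with a target RNA and place a uridine in the active site of dyskerin, which turns it into pseudouridine. SNORA genes mostly guide this change in ribosomal RNA, and SCARNA genes act in Cajal bodies on the small nuclear RNAs of the spliceosome. In human cells most of them have no promoter of their own: they are cut from introns after the host gene has been spliced, and bound proteins protect their ends from trimming. Some SCARNA genes carry the C and D boxes of the other large family, which guides methylation of the ribose, alone or beside an H/ACA part.

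The sequences show what the names stand for. Those below are the members whose change passed the test against DMSO (SNORA49, SCARNA22) or against the host gene (SNORA34, shown because of that result), and the 3 members with the highest sums. All were read from the GRCh37 genome, 5′ to 3′, written as DNA. Capitals mark the H box (ANANNA, searched in the middle of the gene, where the hairpins meet) and the ACA box (ACA followed by 2 to 4 bases at the 3′ end). In SCARNA7, whose last 100 of 330 bases are shown, capitals mark the letters CTGA of a D box, and no ACA box was found. In SCARNA13 no H box was found by this search, and only the ACA box is marked.
SNORA49: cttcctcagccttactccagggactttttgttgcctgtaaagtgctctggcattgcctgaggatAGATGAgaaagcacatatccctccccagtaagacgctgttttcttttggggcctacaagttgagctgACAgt
SCARNA22: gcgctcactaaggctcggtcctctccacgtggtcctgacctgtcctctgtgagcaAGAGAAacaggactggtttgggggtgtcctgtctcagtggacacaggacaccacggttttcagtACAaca
SNORA34: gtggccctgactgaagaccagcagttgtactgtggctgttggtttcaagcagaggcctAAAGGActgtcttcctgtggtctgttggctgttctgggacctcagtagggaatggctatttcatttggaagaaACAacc
SNORA73B: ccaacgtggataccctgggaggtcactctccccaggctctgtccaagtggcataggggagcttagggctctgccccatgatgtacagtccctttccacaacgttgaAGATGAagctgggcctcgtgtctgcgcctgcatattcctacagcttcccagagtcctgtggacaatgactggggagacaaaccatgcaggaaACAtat
SCARNA7: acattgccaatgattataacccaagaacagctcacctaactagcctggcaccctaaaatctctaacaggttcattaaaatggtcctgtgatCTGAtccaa
SCARNA13: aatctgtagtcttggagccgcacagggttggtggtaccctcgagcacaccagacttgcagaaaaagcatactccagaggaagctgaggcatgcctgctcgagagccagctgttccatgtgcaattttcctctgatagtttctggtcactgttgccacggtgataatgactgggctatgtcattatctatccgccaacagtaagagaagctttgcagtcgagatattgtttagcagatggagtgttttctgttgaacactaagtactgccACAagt

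SNORA49 lies at chr12:132515769-132515904 on the plus strand in EP400, which encodes a chromatin remodelling ATPase. SCARNA22 lies at chr4:1976363-1976487 on the plus strand in NSD2, a histone H3 lysine 36 methyltransferase, and overlaps an exon of that gene in GENCODE 44. SNORA34 lies at chr12:49048165-49048301 on the minus strand in KANSL2, a subunit of a histone acetyltransferase complex. SNORA73B, at chr1:28835071-28835274 on the plus strand, lies in the spans of both SNHG3, its long non-coding snoRNA host, and RCC1, the exchange factor of Ran. SCARNA7, at chr3:160232695-160233024 on the minus strand, lies in KPNA4, an importin. SCARNA13, at chr14:95999692-95999966 on the minus strand, overlaps an exon of the long non-coding RNA SNHG10.

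The boxes were found in most members. An ACA box stood at the end of 56 of the 74 members (75.7%) against 62.7% of the 373 SNORA and SCARNA genes under the minimum sum and 4.64% of 388 SNORD genes, the C/D box family. ANANNA was found in 83.8% of the members, 80.4% of the genes under the minimum and 38.4% of the SNORD genes, so its letters alone separate the families poorly. Both boxes were found in 51 members (68.9%), in 51.2% of the genes under the minimum and in 0.516% of the SNORD genes. TGAG, the letters of the Cajal body signal, was found in 11 of 13 SCARNA members (84.6%) and 26 of 61 SNORA members (42.6%), but also in 78.9% of SNORD genes, whose D box letters CTGA share TGA with it. SCARNA5, SCARNA6, SCARNA7 and SCARNA18 on chromosome 18 carried TGATGA in their first and CTGA in their last 25 bases, the letters of the C and D boxes, and 52.1% of SNORD genes did. The searches used the sense strand of each gene, and a match is a description of letters, not of a working site. By these letters the SCARNA members are a mixture, and the set as a whole is best described by its names.

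Members were 53 to 330 bases long (median 135), and the methods name no step that enriches short RNA. How completely RNAs of each length were captured was not tested. Gene totals were 21463105 to 25350204 fragments per library, and the 74 members held 93757 fragments in all. With DMSO, 12.4% and 12.3% of fragments lay on no annotated exon of their strand, and with SGSS05-NS 16.1% and 15.3% did. Fragments antisense to an exon can be among them, and the shares are of all fragments, those unmapped or mapped to several places included. Because most members are intronic, unspliced host RNA that crosses a member can be counted there. The part of that RNA in any count was not tested. Of the fragments on members, 0.0821% lay on the opposite strand. KMT5A mRNA was higher with SGSS05-NS (log2 fold change 0.57 ± 0.09 (SE), edgeR adjusted p = 0.000370), a reading on the transcript and not on the inhibited enzyme. Noradrenergic neuroblastoma markers summed to 2788 and 2988 CPM (fragments of a gene per 1000000 counted, TMM-scaled) with DMSO and 1858 and 1631 CPM with SGSS05-NS. Of the 8, 7 were tested and 5 were lower at adjusted p under 0.001 by edgeR, while TH, the tyrosine hydroxylase of these cells, was at 0 to 2 fragments. Mesenchymal markers (8 genes, PRRX1 at 0) summed to 182 and 186 CPM with DMSO and 180 and 168 CPM with SGSS05-NS. By edgeR, VIM was higher at 0.001 (log2 fold change 0.55) and NOTCH2 lower at 0.05 (-0.58), while FN1 and YAP1 passed neither. FOSL1 (1 and 0 against 152 and 106 fragments) and CD44 (5 and 6 against 17 and 11) are given without a test. With DMSO both stood under the low-count filter's minimum of 0.421 CPM, so they passed it only through the SGSS05-NS libraries. Schwann cell markers (4 genes) summed to 1.28 to 2.03 CPM with SOX10 at 0. T and myeloid markers (4 genes, CD3E at 0) summed to 0.319 and 0.428 CPM with DMSO and 1.31 and 1.32 CPM with SGSS05-NS, mostly CD14 (7 and 9 against 25 and 29 fragments). In bulk RNA, fewer cells of a kind and less RNA per cell cannot be told apart, and the part of these marker differences in the results below was not tested.

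Most of the signal came from few members. SNORA73B alone held 46.1% of member fragments and the 6 members with the highest sums held 84.8%. The median sum was 115, with 8 members over 1000, 33 between 100 and 1000 and 33 between 20 and 99. At the lower edge, SNORA70 on chromosome 14 (9, 3, 4 and 4 fragments in DMSO 1, DMSO 2, SGSS05-NS 1 and SGSS05-NS 2), SNORA9 at 124101255 on chromosome 12 (6, 7, 4 and 3) and SNORA40 (2, 7, 6 and 5) each held exactly 20. Just outside were SNORA11 on the X chromosome with 19, SCARNA23 with 18 and SNORA68 with 17 fragments.

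**Figure D1:**
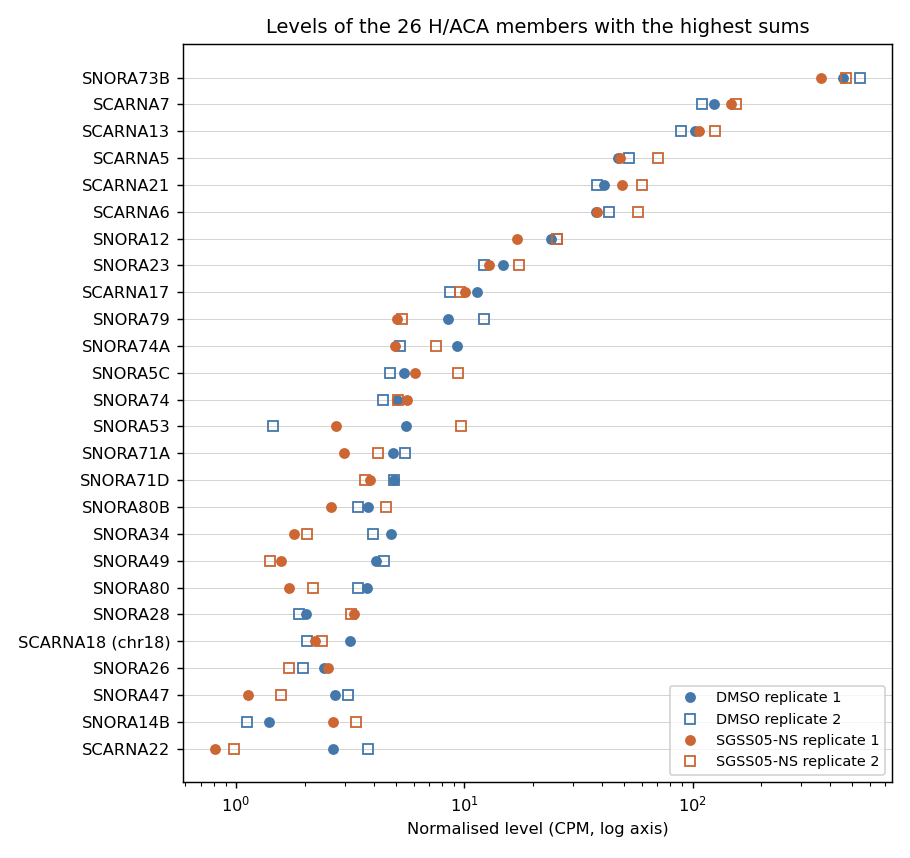
Normalised level (CPM, fragments per 1000000 counted, log axis) of the 26 members with the highest sums, 1 row per member, in the 4 libraries. Blue marks DMSO and orange SGSS05-NS, filled circles replicate 1 and open squares replicate 2. SNORA73B stands above 366 CPM in every library, while SNORA49 and SCARNA22 show both orange points left of both blue ones.

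SNORA73B, also known as U17b or E1b, is a snoRNA of ribosomal RNA processing rather than a guide for pseudouridine. It measured 455 and 543 CPM with DMSO and 366 and 469 CPM with SGSS05-NS. The groups overlapped, and the log2 fold change of -0.26 ± 0.13 (SE) did not pass the threshold (edgeR quasi-likelihood test, adjusted p = 0.117). Leaving out 1 library moved it between -0.096 without SGSS05-NS replicate 1 and -0.45 without SGSS05-NS replicate 2. It lies inside 2 genes on its strand. SNHG3, also known as the U17 host gene, held 19967 and 7663 fragments with DMSO and 13502 and 15922 with SGSS05-NS, and its log2 fold change was 0.19 ± 0.27 (edgeR adjusted p = 0.591). RCC1, which the rule of taking a protein-coding host first had chosen, gave -0.27 ± 0.09. The log2 ratio of SNORA73B to its host changed by -0.59 ± 0.49 with SNHG3 (limma adjusted p = 0.411) and by 0.0045 with RCC1 (adjusted p = 0.988), so the size and sign of that difference depend on which gene is taken as the host. SNORA12 and SNORA23, the other SNORA members among the 8 highest sums, measured 17.0 to 25.4 CPM and 12.2 to 17.3 CPM over all libraries. Their groups overlapped as well, with log2 fold changes of -0.21 ± 0.16 and 0.17 ± 0.16. Both were near 0 and turned sign with 1 library left out, SNORA12 without SGSS05-NS replicate 1 (0.039) and SNORA23 without SGSS05-NS replicate 2 (-0.063).

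The SCARNA members were the larger share of what remained. Summed without SNORA73B, all members reached 512 and 487 CPM with DMSO and 515 and 631 CPM with SGSS05-NS, of which SCARNA members made 373 and 350 CPM and 405 and 485 CPM. The higher sum was set mainly by SGSS05-NS replicate 2. In that library 45 of the 59 members tested stood above replicate 1 of the same group (median log2 ratio 0.28), against 52.5% of all genes tested (median 0.01), whereas between the DMSO libraries 29 of 59 members did. Changes of abundant members are therefore given also without that library where this turns the sign.

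SCARNA7, known as U90, guides ribose methylation of the U1 small nuclear RNA. It measured 124 and 110 CPM with DMSO and 148 and 155 CPM with SGSS05-NS, so that the groups did not overlap. Its log2 fold change was 0.37 ± 0.10 (edgeR adjusted p = 0.00894), short of the threshold of 0.001. SCARNA21 (ACA68) measured 40.8 and 38.2 CPM against 48.9 and 60.0 CPM, again without overlap, with a log2 fold change of 0.46 ± 0.11 (adjusted p = 0.00576). Without SGSS05-NS replicate 2 both stayed higher, SCARNA7 at 0.33 and SCARNA21 at 0.31. Leaving out 1 library moved SCARNA7 between 0.27 without DMSO replicate 2 and 0.44 without DMSO replicate 1. For SCARNA21 the largest value was 0.60, without SGSS05-NS replicate 1. KPNA4, the host of SCARNA7, rose by 0.74 ± 0.11 (adjusted p = 0.000266), while CHD3, a chromatin remodeller and the host of SCARNA21, gave -0.08 ± 0.09. Neither ratio of member to host differed at an adjusted p of 0.05 (limma adjusted p = 0.280 and 0.133).

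SCARNA13, known as U93 and built of a pair of H/ACA domains, measured 102 and 88.8 CPM with DMSO and 107 and 126 CPM with SGSS05-NS (log2 fold change 0.28 ± 0.11, edgeR adjusted p = 0.0521). The order of its groups depends on the strand: counted without regard to strand, only 643 of its 9960 fragments were kept, since GLRX5 lies across it on the opposite strand, and the log2 fold change was then -0.29. SCARNA5 and SCARNA6, known as U87 and U88, join a C/D and an H/ACA part and guide modification of the U5 small nuclear RNA. SCARNA5 measured 47.3 and 52.8 CPM against 47.9 and 70.7 CPM, and SCARNA6 37.6 and 42.9 CPM against 38.0 and 57.7 CPM. Both overlapped between groups, at log2 fold changes of 0.25 ± 0.15 and 0.25 ± 0.16, and both turned sign without SGSS05-NS replicate 2 (-0.061 and -0.080). They share the host ATG16L1, an autophagy gene, which gave 0.52 ± 0.10 (adjusted p = 0.00113).

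The remaining SCARNA members were low. SCARNA17 measured 8.69 to 11.4 CPM and SCARNA18 on chromosome 18 measured 2.05 to 3.15 CPM, with groups that overlapped and log2 fold changes of -0.04 ± 0.16 and -0.19 ± 0.26. SCARNA1 (ACA35), a guide for the U2 small nuclear RNA, held 40 and 28 fragments with DMSO and 14 and 22 with SGSS05-NS (log2 fold change -0.83 ± 0.33, edgeR adjusted p = 0.0586). SCARNA4 (ACA26), also a U2 guide, held 20 and 15 against 22 and 26 fragments (0.54 ± 0.33, adjusted p = 0.199). Neither passed the test, although in both the groups stood apart. SCARNA3 (8, 5, 6 and 12 fragments in DMSO 1, DMSO 2, SGSS05-NS 1 and SGSS05-NS 2), SCARNA18 on chromosome 5 (8, 4, 2 and 13) and SCARNA8 (6, 3, 9 and 7) were too low to be tested.

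Of the 74 members, 59 passed the filter on low counts, 49 SNORA and 10 SCARNA. One member, SNORA22 at 64526377 on chromosome 7, passed it only through the DMSO libraries and 1, SNORA3, only through the SGSS05-NS libraries. At an adjusted p under 0.001, 0 members were called higher with SGSS05-NS and 2 lower, against 6.37% higher and 8.14% lower among the 16468 genes tested. At an adjusted p under 0.05, 7 members were higher and 9 lower, where 22.6% and 23.7% of all genes were. SNORA3 is among the 7 and SNORA22 at 64526377 among the 9, and each had passed the filter only through the group where it was high. Without them 6 were higher and 8 lower of 57. The 6 include SNORA42 on chromosome 1, which with DMSO reached the filter's minimum only in replicate 2. In 17 members both SGSS05-NS libraries stood above both DMSO libraries and in 15 below, against 37.8% and 36.9% of all genes. The median log2 fold change of the 59 was -0.01 and that of all genes tested 0.01. The members' median standard error was 0.29, against 0.14 for all genes, so a change of a given size was called less readily in them. By group, the median was -0.03 over 49 SNORA members and 0.25 over 10 SCARNA members, and 44 SNORD genes chosen by the same minimum had a median of 0.07 with 0 called at 0.001 and 5 higher and 7 lower at 0.05 (edgeR).

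**Figure D2:**
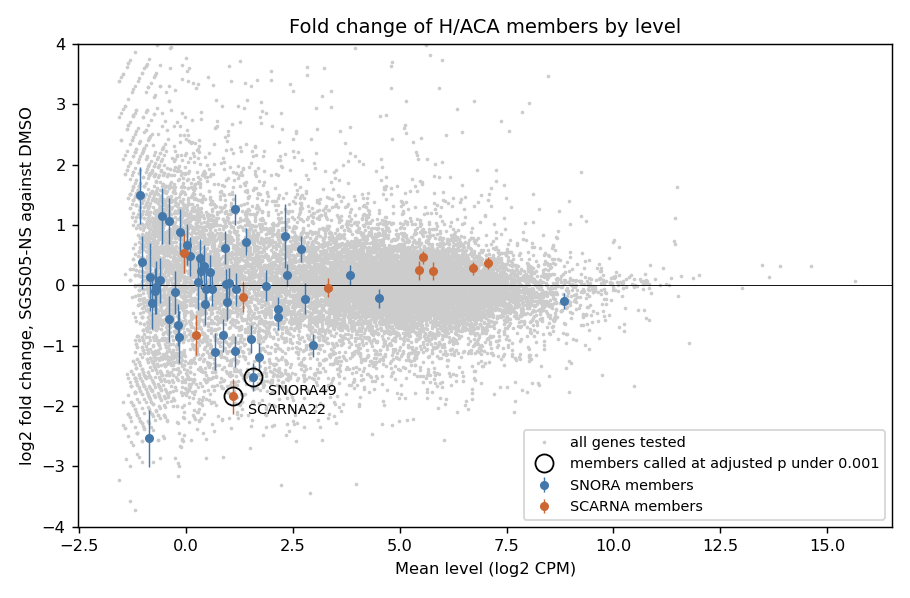
Log2 fold change of SGSS05-NS against DMSO by mean level (log2 CPM) for the 16468 genes tested (grey), SNORA members (blue) and SCARNA members (orange), with bars of 1 standard error. The 2 circled members, SNORA49 and SCARNA22, are those called at an adjusted p under 0.001, and 64 genes with a change of more than 4 in either direction lie outside the axis.

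SNORA49 fell. It held 103 and 104 fragments with DMSO and 35 and 33 with SGSS05-NS, or 4.28 ± 0.24 and 1.49 ± 0.12 CPM (SD, n = 2). The groups stood far apart and the replicates close together. The log2 fold change was -1.52 ± 0.23 (SE), a level 2.87-fold lower (edgeR adjusted p = 0.000259). EP400, its host, gave a log2 fold change of -0.12 ± 0.16 over its exons (adjusted p = 0.561). The log2 ratio of SNORA49 to EP400 was -3.90 and -4.34 with DMSO and -5.56 and -5.41 with SGSS05-NS, without overlap. The difference from the host was -1.37 ± 0.28 (limma adjusted p = 0.00828), short of 0.001.

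SCARNA22, known as ACA11 and without an established target, fell as well. It held 67 and 88 fragments with DMSO and 18 and 23 with SGSS05-NS, or 3.22 ± 0.78 and 0.894 ± 0.118 CPM (SD, n = 2). The log2 fold change was -1.83 ± 0.29 (SE), a level 3.57-fold lower (edgeR adjusted p = 0.000349). NSD2, the host, gave -0.43 ± 0.09 (adjusted p = 0.00257). The log2 ratio of SCARNA22 to NSD2 was -6.89 and -6.41 with DMSO and -8.11 and -7.80 with SGSS05-NS, a difference of -1.30 ± 0.30 (limma adjusted p = 0.0153). Both called members lie far from the start of long hosts, SNORA49 at 81.3 kb in a host of 131 kb and SCARNA22 at 103 kb in a host of 111 kb. Members with positive changes also lie so. SCARNA6, at 78.6 kb in a host of 85.6 kb, gave 0.25 ± 0.16, and SNORA50, at 70.0 kb in a host of 110 kb, gave 0.89 ± 0.38. Neither of these passed 0.05 (edgeR). The median host was 21.5 kb long. In hosts longer than that median, 6 (22.2%) of 27 tested members were lower and 3 (11.1%) higher at an adjusted p under 0.05. In hosts up to the median, 1 (3.70%) of 27 was lower and 4 (14.8%) were higher (edgeR). SNORA3, among the 3, had passed the filter only through the SGSS05-NS libraries, where it was high. Of all genes, 23.7% were lower and 22.6% higher, so the 22.2% is near that share and the other shares are below it. The part of host length in these counts was not tested.

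Further members are given here because of their values. SNORA22 at 64526377 on chromosome 7 held 19 and 19 fragments with DMSO and 3 and 3 with SGSS05-NS. No test is given for it, since it passed the filter only through the DMSO libraries. It is 98.5% identical to another SNORA22 gene listed at 0, and fragments that fit both were not counted, so its count is uncertain. A further SNORA22 copy, at 56123058 on chromosome 7 and 92.8% identical to it, held 31, 23, 11 and 42 fragments and overlapped between groups. SNORA34 held 120 and 93 against 40 and 48 fragments (log2 fold change -1.19 ± 0.22, edgeR adjusted p = 0.00121). SNORA79 held 213 and 284 against 112 and 125 fragments (-0.99 ± 0.19, adjusted p = 0.00146). In both the groups did not overlap. SNORA14B went the other way with 35 and 26 fragments against 59 and 79 (1.26 ± 0.26, adjusted p = 0.00222).

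The other members with an adjusted p under 0.05 held fewer fragments or smaller differences. Lower with SGSS05-NS were SNORA47 (68 and 72 against 25 and 37 fragments, log2 fold change -1.09), SNORA80 (94 and 80 against 38 and 51, -0.88), SNORA7B (42 and 58 against 21 and 23, -1.10) and SNORA54 (48 and 59 against 26 and 31, -0.83). SNORA7B is 98.6% identical to SNORA7A, listed at 0, and fragments that fit both were not counted, so its count is uncertain. SNORA80 and SNORA80B share 91.9% of their bases, yet SNORA80B held 95 and 80 against 58 and 107 fragments and overlapped between groups. Their hosts differ: URB1, a ribosome assembly factor, carries SNORA80 and gave -0.45 ± 0.09, and ODC1, ornithine decarboxylase, carries SNORA80B and gave 0.39 ± 0.10. Higher were SNORA28 (51 and 44 against 73 and 75 fragments, 0.72), SNORA5C (137 and 110 against 135 and 221, 0.61) and SNORA42 on chromosome 1 (9 and 12 against 17 and 25, 1.07). In DMSO replicate 1 SNORA42 on chromosome 1 stood under the filter's minimum of 0.421 CPM. The DMSO libraries alone would not have passed it, so its place among the higher members rests partly on the group where it was high. SNORA3 held 5 and 5 against 10 and 17 fragments and is given without a test, since it passed the filter only through the SGSS05-NS libraries. SNORA53 had the largest standard error of the 26 members with the highest sums that were tested, with 140 and 34 fragments with DMSO and 61 and 228 with SGSS05-NS, a log2 fold change of 0.82 ± 0.53.

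The 15 members not tested held sums of 20 to 40. In 13 of them the 95% exact binomial interval of the ratio of scaled counts, SGSS05-NS to DMSO, included equal levels. SNORA70 on chromosome 19 held 10, 17, 1 and 3 fragments, a ratio of 0.157 (0.0399 to 0.451), and SNORA9 at 122976660 on chromosome 12 held 5, 0, 9 and 10, a ratio of 4.03 (1.45 to 13.8). These intervals cover counting error only and not the spread between cultures.

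Host genes were found for 67 members: 56 lie in a protein-coding gene and 11 in a long non-coding RNA gene, in 56 distinct hosts. In the DMSO libraries, 25 of the 67 had a higher level per kilobase than the exons of their host, and the median ratio of member to host was 0.388. SNORA73B stood at 2445 CPM per kb against 32.1 for RCC1, SCARNA13 at 347 against 2.21 for SNHG10 and SNORA49 at 31.5 against 4.27 for EP400. SNORA14B, at 9.29 CPM per kb, stood far under TOMM20 at 303. Of these hosts, 7 rose and 1 fell among the 45 that carry a tested member (edgeR adjusted p under 0.001), or 15.6% and 2.22%, against 6.37% and 8.14% of all genes.

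Member and host were compared in 54 pairs as the change of their ratio, in a fit over all 167 pairs of a small RNA gene nested in a host. At an adjusted p under 0.001, 1 member was lower than its host and 0 were higher, against 2.99% lower and 0.00% higher over all nested pairs. At an adjusted p under 0.05, 7 members were lower and 1 was higher than the host, against 10.2% and 12.0% (limma). The median difference of member minus host was -0.13 on the log2 scale over the 54 pairs and 0.14 over all 167, and 34 members were below and 20 above their host. In 19 pairs member and host had opposite signs. Across the 54 pairs, which share libraries and some of which share a host, Pearson's r of the log2 fold changes was 0.20 and Spearman's rho 0.22, given as a description.

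**Figure D3:**
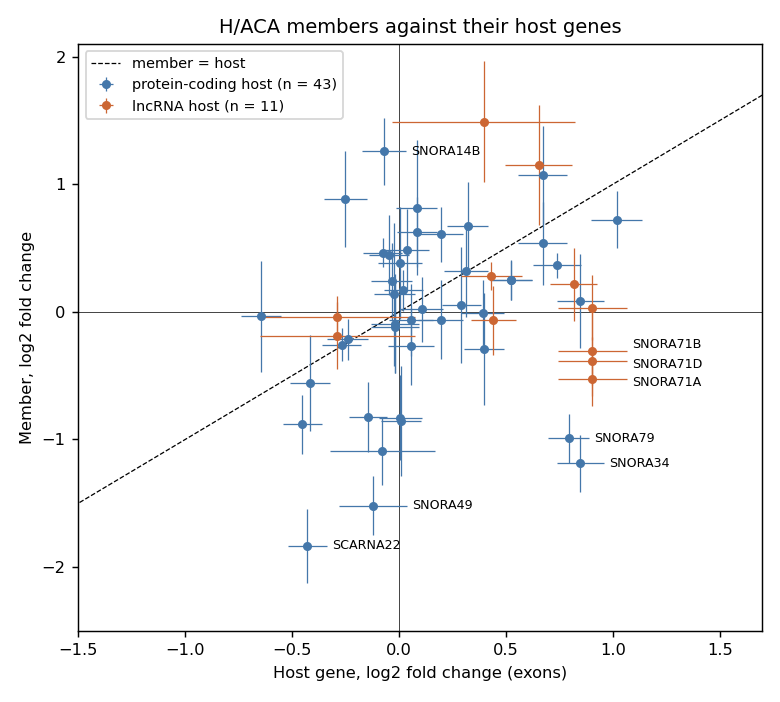
Log2 fold change of each of 54 members (vertical axis) by that of its host's exons (horizontal axis), with bars of 1 standard error and the line of equal change dashed. Blue points have a protein-coding and orange points a long non-coding host, and the 8 labelled members are those whose ratio to the host changed at an adjusted p under 0.05. SNORA34, SNORA79 and the SNORA71 members lie under the line on the right, at hosts with log2 fold changes of 0.79 to 0.90.

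SNORA34 was the member called against its host at 0.001. While SNORA34 went from 4.38 ± 0.57 to 1.92 ± 0.17 CPM (SD, n = 2), KANSL2 rose from 43.6 and 40.7 CPM to 68.8 and 83.1 CPM (log2 fold change 0.85 ± 0.11, edgeR adjusted p = 8.25e-05). The log2 ratio of SNORA34 to KANSL2 was -3.17 and -3.33 with DMSO and -5.19 and -5.29 with SGSS05-NS, so the groups lay far apart. The difference was -1.99 ± 0.25, or 3.97-fold (limma adjusted p = 0.000562). Without DMSO replicate 1 or DMSO replicate 2 the difference was -1.91 and -2.07, and the adjusted p was 0.0484 and 0.0474, past 0.05 but not 0.001. SNORA2B, in the same host, held 14 and 13 against 13 and 14 fragments (log2 fold change 0.08 ± 0.37), and SNORA2A held 5, 14, 5 and 7 and was not tested. The ratio of SNORA2B to KANSL2 did not pass the test (difference -0.76 ± 0.35, adjusted p = 0.160).

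SNORA79 showed the same order. Its host CCNB1IP1, a ubiquitin ligase of meiotic recombination, rose (log2 fold change 0.79 ± 0.09, edgeR adjusted p = 4.58e-05). The log2 ratio of SNORA79 to CCNB1IP1 was -3.68 and -3.19 with DMSO and -5.16 and -5.22 with SGSS05-NS. The difference of -1.75 ± 0.25 had an adjusted p of 0.00109 by limma, just short of 0.001. SNORA14B was the member above its host: TOMM20, a receptor of mitochondrial protein import, gave -0.07 ± 0.10, and the difference of SNORA14B from it was 1.28 ± 0.28 (limma adjusted p = 0.0131).

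The SNORA71 members share SNHG17, a long non-coding snoRNA host that rose by 0.90 ± 0.16 (edgeR adjusted p = 0.000759), from 17.1 and 20.4 CPM to 28.9 and 41.2 CPM. SNORA71A held 122 and 128 against 66 and 98 fragments, SNORA71D 123 and 115 against 86 and 86, SNORA71C 42 and 50 against 45 and 44, and SNORA71B 28 and 40 against 18 and 34. Their own log2 fold changes of -0.53, -0.38, 0.03 and -0.31 did not pass a threshold of 0.05. Their differences from SNHG17 were -1.42 for SNORA71A, -1.26 for SNORA71D and -1.20 for SNORA71B (limma adjusted p = 0.00280, 0.0131 and 0.0216), and -0.84 for SNORA71C (adjusted p = 0.0744). SNORA71A, SNORA71C and SNORA71D share 83.6% to 85.8% of their bases and overlap exons of SNHG17 in GENCODE 44. SNORA71B shares 41.9% to 44.1% with them by the same measure, which divides matches by the length of the longer gene. It is annotated at 272 bases against 134 for the others. Its share is therefore limited by length and does not measure how alike the common part is. These 4 members have 1 host and are not independent of each other.

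Members in hosts that rose were mostly below them. In 12 pairs the host was called higher at 0.001 by edgeR, and 11 of those members were below the host in log2 fold change, with a median of 0.06 against 0.85 for the hosts. The exception was SNORA42 on chromosome 1, at 1.07 ± 0.38 against 0.67 ± 0.11 for KHDC4. With DMSO it reached the low-count filter's minimum only in replicate 2. SCARNA4, in the same host, gave 0.54 ± 0.33. SNORA28 gave 0.72 ± 0.23 in EIF5, a translation initiation factor that rose by 1.02 ± 0.12, and that ratio did not pass the test (limma adjusted p = 0.447). These hosts were picked by their own rise, which enters the difference, so the count of 11 is a description only.

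**Figure D4:**
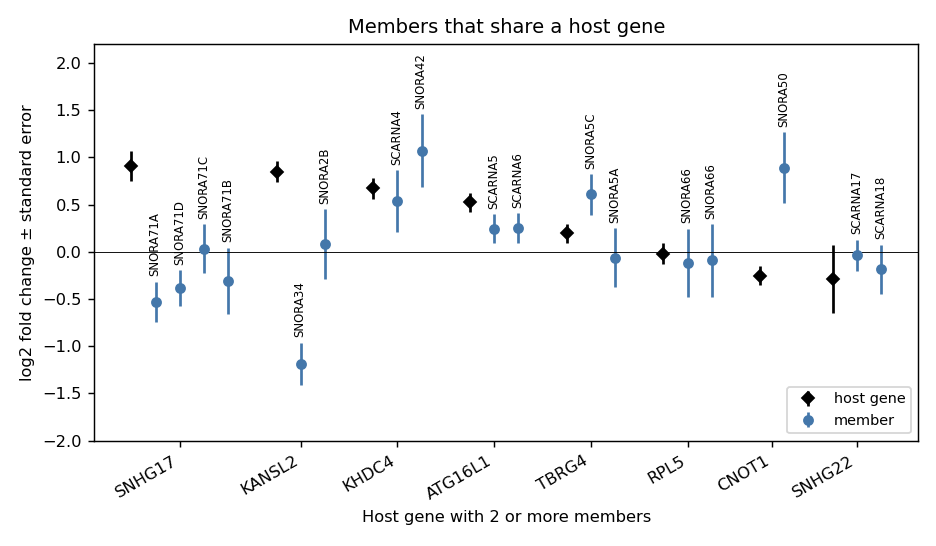
Log2 fold change with bars of 1 standard error for the 8 hosts with 2 or more members (black diamonds) and their tested members (blue circles), ordered by the host's change. All 4 SNORA71 members and SNORA34 lie under their hosts, while SCARNA17 and SCARNA18 lie above SNHG22.

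Of the other hosts with several members, TBRG4, a regulator of mitochondrial RNA, gave 0.19 ± 0.10 and carries SNORA5C (0.61 ± 0.21) and SNORA5A (-0.06 ± 0.31). RPL5, a ribosomal protein gene, gave -0.02 ± 0.11 beside 2 SNORA66 members at -0.12 ± 0.36 and -0.09 ± 0.39. CNOT1, the scaffold of a deadenylase complex, gave -0.25 ± 0.10 and carries SNORA50, with 19 and 9 against 22 and 27 fragments (0.89 ± 0.38), and SNORA46 on chromosome 16, with 8, 4, 5 and 9 fragments and not tested. SNHG22 was low, at 0.553 to 0.813 CPM, and its change of -0.29 ± 0.36 could not be told from 0, as for SCARNA17 and SCARNA18 within it. Over 6 members in ribosomal protein genes the median was 0.09, with 0 called by edgeR at 0.05 in either direction.

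Genes that build or serve the H/ACA particle were counted in the same fit. They are called H/ACA protein genes here, although TERC among them is an RNA. Of 22 genes for the core, assembly, Cajal body, 3′ end trimming, telomerase and debranching steps, 0 were higher and 1 was lower at an adjusted p under 0.001, and 4 were higher and 5 lower under 0.05 (edgeR). These shares were below or near those of all genes (6.37% and 8.14%, and 22.6% and 23.7%), and nothing particular to the list is read from them. RUVBL1, an ATPase that helps assemble the particle, went from 162 and 157 CPM to 102 and 96.8 CPM (log2 fold change -0.69 ± 0.09, adjusted p = 0.000107). Among the 4 core proteins, DKC1 (dyskerin) gave -0.37 ± 0.09 (adjusted p = 0.00676) and NHP2 -0.47 ± 0.09 (adjusted p = 0.00187). GAR1 gave -0.17 ± 0.12 and NOP10 -0.03 ± 0.11, both without passing 0.05. The assembly factor SHQ1, which binds dyskerin before the RNA does, gave -0.48 ± 0.10 (adjusted p = 0.00169), and NAF1, which GAR1 later replaces, gave 0.44 ± 0.15 (adjusted p = 0.0272). PARN, an exonuclease that trims the 3′ ends of these RNAs, gave -0.48 ± 0.13 (adjusted p = 0.00967). Beside NAF1, the genes higher under 0.05 were TENT4B and DIS3, of the same 3′ end group as PARN, and COIL, of the Cajal body group. They gave 0.32 ± 0.11, 0.28 ± 0.10 and 0.26 ± 0.10 (edgeR adjusted p = 0.0361, 0.0387 and 0.0481). TERC, the telomerase RNA, which ends in an H/ACA domain but is no member by name, measured 99.4 and 95.5 CPM against 101 and 133 CPM (0.27 ± 0.12, adjusted p = 0.0885), again with the highest value in SGSS05-NS replicate 2.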

How the data were processed

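The authors used Trimmomatic 0.30 for trimming and STAR 2.4.2a for alignment of the read pairs (hg19, GENCODE 19 genes). They deposited unnormalised counts of fragments by gene, with replicates kept apart (per the labels and the study's methods, which name a stranded, ribosome-depleted total RNA kit, where the labels name a TruSeq RNA kit). Fragments that map to several places were not counted, so near-identical copies are counted too low. The files hold 3 columns of counts, and column 4, the sense strand, was used. The 4 summary rows per file (unmapped, several places, outside exons, ambiguous) stayed out of library sizes and tests. The methods name independent biological replicates, and with 2 per group, p-values measure the spread between these libraries only. Replicates of a group were separate libraries by their counts: their chi-square was 9.75 times its degrees of freedom for DMSO and 13.4 times for SGSS05-NS.

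Names, spans and hosts came by gene identifier from GENCODE 44 on GRCh37, which keeps 73 of the 74 members' records from GENCODE 19, and 2282 identifiers had no entry. Host spans may differ from GENCODE 19. A host is the gene on the same strand that holds the member whole, the protein-coding one first. For SNORA73B the gene with the highest sum differs from it and is given too. Members and lists were chosen with earlier results of these data known.

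The test of counts was the quasi-likelihood test of edgeR 4.0.16 (R 4.3.3), after filterByExpr and TMM scaling, with Benjamini-Hochberg adjustment over 16468 genes and a threshold of 0.001. A standard error is the log2 fold change divided by the root of F. Ratios, log2 of (member + 2)/(host + 2), were tested with limma 3.58.1 over 167 pairs. CPM are TMM-scaled. DESeq2 1.42.0, edgeR's likelihood ratio test (the study's test, edgeR 3.10.5 there), other scalings, filters, pseudocounts, strand, a replicate block and leaving out each library were alternatives. The fits were tested on simulated data. Named were members past the threshold, the 8 highest sums, all SCARNA members, the edge of the minimum, their hosts, hosts with several members, H/ACA protein genes past the threshold and the 4 core proteins. Other genes were named after their values were seen.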

Additional observations from a re-analysis of the deposited data

Results flagged for a closer look

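Fragments on no annotated exon of their strand, which no comparison used, made up 16.1% of SGSS05-NS replicate 1 and 15.3% of SGSS05-NS replicate 2. These shares of all fragments, unmapped ones included, were above the 12.4% and 12.3% of the DMSO libraries. Both are named because the share in each treated library lay above that in every control library. With 2 libraries per group, an exact permutation test of this share could not reach a p of 0.05.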

How the results depend on the processing

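Beside 0 members called higher and 2 lower, the likelihood ratio test called 1 and 7, the fit with no filter on low counts 3 and 9, an adjusted p under 0.05 7 and 9, and leaving out 1 library 0 to 2 higher (2 without DMSO replicate 1 and 2 without SGSS05-NS replicate 1) and 2 to 3 lower. In 12 other fits each, SNORA49 (-1.61 to -1.44) and SCARNA22 (-2.07 to -1.59) kept their direction and their side of the threshold. Of the H/ACA protein genes, 0 higher and 1 lower became 0 and 3 under DESeq2 and under the likelihood ratio test, 4 and 5 under 0.05, and 1 to 2 lower with 1 library left out. Against the host, 0 members higher and 1 lower became 0 lower with a pseudocount of 0.5, 3 lower with 5, 2 lower with at least 10 counts in every library, 2 lower without regard to strand, 1 higher and 7 lower under 0.05, and 0 to 1 higher and 0 to 4 lower with 1 library left out (0 lower without either DMSO library, 4 without either SGSS05-NS library). SNORA34 against its host stayed between -2.07 and -1.91, with an adjusted p of 0.0484 without DMSO replicate 1 and 0.0474 without DMSO replicate 2. The fits without SGSS05-NS replicate 1 or 2 also leave out 1 library, and there SNORA34 gave -2.04 and -1.94. Why the adjusted p was larger without a DMSO library was not tested.

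Signs turned for SCARNA13 without regard to strand (-0.29), for SCARNA5 (-0.061 to 0.49 with 1 library left out), SCARNA6 (-0.080 to 0.51) and SNORA23 (-0.063 to 0.36) without SGSS05-NS replicate 2, for SNORA12 (-0.53 to 0.039) without SGSS05-NS replicate 1, and for SCARNA17 (-0.24 to 0.17) and SCARNA18 on chromosome 18 (-0.47 to 0.15) without DMSO replicate 1. The difference of SNORA73B from its host was -0.59 with SNHG3, the gene with the highest sum that holds it, a choice made after seeing the data, and -0.17 to 0.18 with 1 library left out. That host choice left 0 members higher and 1 lower. Without SGSS05-NS replicate 2 the median over the members was -0.17. Scaling by library size only gave a median of 0.04 over all genes.

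The labels number replicates 1 and 2 in both groups, but the deviations of same-numbered libraries correlated at 0.05 over 16468 genes, so the numbers were taken as names. With the replicate block, 1 member was called higher and 5 lower, 2 H/ACA protein genes were lower, 2 members were lower than the host, and over all genes 1759 were higher and 2007 lower. Low counts limit most members: their median sum was 115.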
